A study of Glycine max with 10 samples.

Results

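LUX1 (Glyma.12G060200.Wm82.a2.v1), LUX2 (Glyma.11G136600.Wm82.a2.v1), J (Glyma.04G050200.Wm82.a2.v1), PRR3b (Glyma.12G073900.Wm82.a2.v1) and E2 (Glyma.10G221500.Wm82.a2.v1) are day and evening genes of the soybean circadian clock. These 5 genes were taken by their IDs from a table of read counts for 56044 genes, and all 5 were found. Pairs of name and ID follow published work on soybean. The RNA came from pods of field-grown soybeans (Glycine max) collected 18 days after flowering, read as paired-end libraries. Titles place 5 soybeans (015, 018, 044, 060 and 071) under high pod shattering force and 5 (038, 055, 072, 092 and 109) under low, called high_force and low_force here. The labels do not state whether a numbered soybean is a plant, a line or a pool, and give no hour of harvest. P-values therefore measure the spread between these samples, which may be technical.

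The plant clock is a loop in which morning and evening genes hold each other down at opposite times of day. In Arabidopsis, LUX, a DNA-binding protein of the MYB type, joins ELF3 and ELF4 in the evening complex, which represses its target genes around dusk and at night. LHY, a MYB-type repressor that peaks near dawn, holds evening genes down in the morning, and pseudo-response regulators (PRR proteins) repress LHY during the day. In soybean, J is an ELF3 gene whose protein works with LUX1 and LUX2 to repress the flowering repressor E1. PRR3b is a pseudo-response regulator that represses LHY genes, and E2 is a GIGANTEA gene known as a maturity locus.

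Library totals ran from 3779756 to 13298201 counts. Libraries were scaled by TMM, a trimmed mean of log ratios between libraries, after which the effective depth was 921615 counts in low_force 055 and 4351305 to 20099288 counts elsewhere. Genes on chromosome 13 took 78.9% of the counts of low_force 055, against 8.33% to 30.1% elsewhere, so that library carries the widest counting error. Levels are given in CPM, read counts relative to the effective depth of the library, and intervals are exact Poisson 95% intervals, which cover counting error only. The pod-wall NAC genes SHAT1-5 (Glyma.16G019400) and NST1A (Glyma.07G050600) were detected in every library, at 17.4 to 30.8 and 25.4 to 44.9 CPM. Of the seed genes, the glycinin gene Gy1 stood at 5571 CPM in low_force 109 and at 0.299 to 65.3 CPM elsewhere, and the lectin gene Le1 had 4344 counts there and at most 9 elsewhere. In bulk pods, fewer cells of a type and less RNA per cell cannot be told apart.

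LUX1 was well detected in 7 libraries and had at most 5 counts in the other 3. In high_force it had 0.825, 24.4, 32.2, 38.9 and 44.2 CPM in soybeans 015, 018, 044, 060 and 071, on 5, 130, 648, 207 and 531 counts. In low_force it had 36.6, 3.26, 0, 40.6 and 27.4 CPM in soybeans 038, 055, 072, 092 and 109, on 315, 3, 0, 407 and 272 counts. High_force 015 and low_force 055 and 072 were low, and each group held libraries of both kinds, so the groups overlapped. The interval of the 0 counts in low_force 072 reached up to 0.848 CPM. The order among the 3 low libraries was not resolved, since their intervals overlapped from neighbour to neighbour. The gap above them was the only step between neighbouring libraries where the intervals parted: low_force 055 reached up to 9.51 CPM, and high_force 018 down to 20.4 CPM.

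LUX2, the other LUX copy measured here, split the libraries in the same way. It had 2.31, 47.8, 69.3, 69.8 and 60.1 CPM in high_force 015, 018, 044, 060 and 071. It had 56.5, 8.68, 1.38, 37.2 and 32.1 CPM in low_force 038, 055, 072, 092 and 109. The low libraries were again high_force 015, low_force 055 and low_force 072, which rest on 14, 8 and 6 counts. Among the other 7 the level spanned 2.17-fold, with low_force 109 and 092 at the bottom and high_force 044 and 060 at the top. The intervals of low_force 092 (33.5 to 41.2 CPM) and high_force 018 (42.1 to 54.0 CPM), neighbours in that order, did not meet.

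J, the ELF3 partner of LUX, spanned a wider range than the LUX genes in the 7 libraries where LUX1 was well detected. It had 11.1, 69.7, 95.6, 84.9 and 114.5 CPM in high_force 015, 018, 044, 060 and 071. It had 101.6, 14.1, 8.96, 22.0 and 44.6 CPM in low_force 038, 055, 072, 092 and 109. The same 3 libraries were lowest, but low_force 092 stood next to them: its interval of 19.2 to 25.1 CPM met that of low_force 055, 7.51 to 24.1 CPM. Low_force 092 was apart from low_force 109, whose interval began at 40.6 CPM, and low_force 109 from high_force 018, whose interval began at 62.8 CPM. Across those 7 libraries J spanned 5.22-fold, LUX2 2.17-fold and LUX1 1.81-fold. The bottom of the J range was low_force 092 alone, with low_force 109 next at 44.6 CPM. Over all 10 libraries, the intervals of neighbours parted at 2 of 9 steps for J, 3 for LUX2 and 1 for LUX1.

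PRR3b varied less and did not separate the 3 libraries low in LUX. It had 72.4, 93.7, 87.1, 94.4 and 156.9 CPM in high_force 015, 018, 044, 060 and 071. It had 104.7, 33.6, 39.1, 72.4 and 90.6 CPM in low_force 038, 055, 072, 092 and 109. Low_force 055 and 072 were lowest, whereas high_force 015 stood level with low_force 092. High_force 071 was highest, and its interval of 150 to 164 CPM lay above that of low_force 038, 98.0 to 112 CPM. With relative log expression or upper-quartile scaling, high_force 015 (71.7 and 70.6 CPM) fell just below the lowest of the 7 (73.9 and 71.6 CPM).

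E2 was the steadiest of the 5 genes on the TMM scale. It had 168.5, 159.4, 122.9, 214.4 and 203.3 CPM in high_force 015, 018, 044, 060 and 071. It had 152.3, 157.3, 118.1, 204.6 and 145.1 CPM in low_force 038, 055, 072, 092 and 109. The lowest library, low_force 072, did not differ from high_force 044 beyond counting error, and high_force 015 and low_force 055, both low in LUX, ranked 7 and 5 from the lowest of 10. The highest level was 1.82-fold above the lowest for E2, against 4.66-fold for PRR3b, 12.8-fold for J and 50.7-fold for LUX2. The SD of log2 CPM over the 10 libraries was 0.30 for E2, 0.66 for PRR3b, 1.43 for J, 2.03 for LUX2 and 2.66 for LUX1, where the median of all 30226 genes tested was 0.61. Of the genes tested, 7.67% had a smaller SD than E2 and 99.7% a smaller SD than LUX1. The span of E2 depends on how libraries are scaled: it was 3.14-fold when scaled to counts outside chromosome 13 and 12.9-fold by library size alone, and 2.26- and 2.78-fold without low_force 055.

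**Figure D1:**
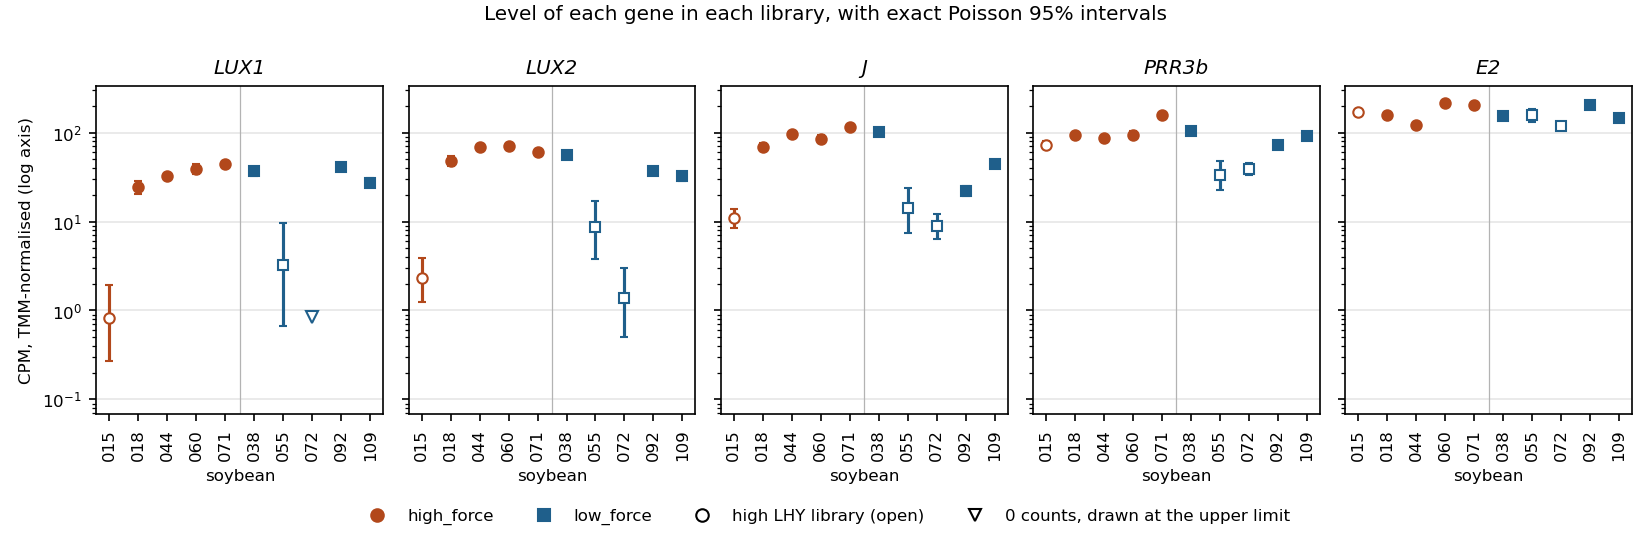
CPM on a log axis for each gene in each soybean, high_force left of low_force, with exact Poisson 95% intervals; open symbols are the libraries with high LHY, and the triangle marks 0 counts at the upper limit of the interval. LUX1 and LUX2 drop in soybeans 015, 055 and 072, J drops there and is also low in 092 (22.0 CPM), and E2 stays between 118.1 and 214.4 CPM.

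Ratios of counts within a library do not depend on scaling, so each gene was also set against E2. They compare libraries for the same pair of genes and not levels between genes, since counts were not divided by gene length. Per 100 E2 counts, LUX1 had 0.490 in high_force 015 and 15.3 to 26.2 in the other high_force libraries. In low_force it had 2.07 in soybean 055, 0 in 072, and 24.0, 19.9 and 18.9 in 038, 092 and 109. LUX2 had 1.37 per 100 E2 counts in high_force 015, 5.52 in low_force 055 and 1.17 in low_force 072, and between 18.2 and 56.3 in the other 7. The LUX split was therefore present without any scaling of libraries.

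For J and PRR3b the ratios to E2 were closer together. J had 6.56, 8.97 and 7.59 counts per 100 E2 counts in high_force 015, low_force 055 and low_force 072, 10.7 in low_force 092, 30.8 in low_force 109 and 39.6 to 77.8 in the remaining 5. For J, low_force 092 thus lay closest to the 3 low libraries, while its LUX1 ratio of 19.9 lay among the other 7. Its order against low_force 055, which rests on 13 J counts, was not resolved. No interval was computed for these ratios, and in CPM the J intervals of those libraries met. The E2 of low_force 092 was high (204.6 CPM, rank 9 from the lowest of 10), which lowers each of its ratios to E2. PRR3b had 43.0, 58.8, 70.9, 44.0 and 77.2 per 100 E2 counts in high_force 015, 018, 044, 060 and 071. In low_force it had 68.8, 21.4, 33.1, 35.4 and 62.4 in soybeans 038, 055, 072, 092 and 109. High_force 015 and 060 were alike in this ratio although they differed in LUX1.

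J and the LUX genes did not drop in proportion in every library. High_force 015 had 13.4 J counts per LUX1 count, on 67 and 5 counts, and low_force 055 had 4.33, on 13 and 3 counts. Among the other 7 libraries the ratio lay between 1.63 and 2.97 in 6, and was 0.541 in low_force 092. Per LUX2 count, J had 4.79 in high_force 015, 1.62 in low_force 055, 6.50 in low_force 072 and 0.590 in low_force 092, against 1.22 to 1.91 in the remaining 6. Low_force 055 thus lay within the range of those 6. LUX2 had 14, 8 and 6 counts in high_force 015, low_force 055 and low_force 072, and no interval was computed for these ratios. Low_force 092 held the least J for its LUX2, and low_force 072 and high_force 015 the most.

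**Figure D2:**
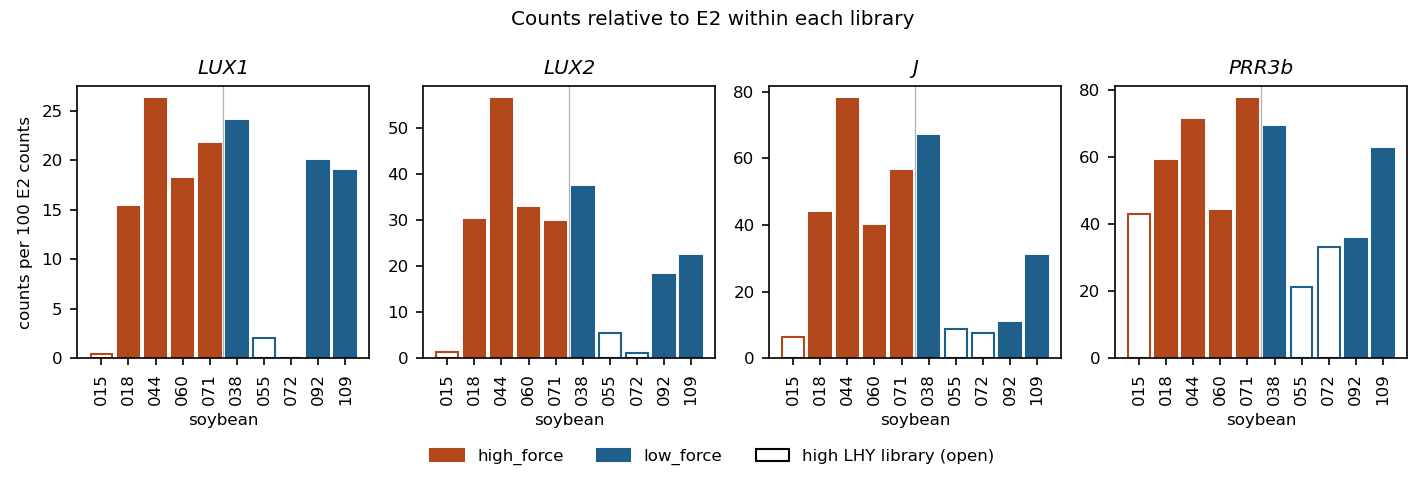
Counts of LUX1, LUX2, J and PRR3b per 100 E2 counts in each soybean, high_force left of low_force, each panel with its own axis from 0; open bars are the libraries with high LHY. LUX1 is at most 2.07 in soybeans 015, 055 and 072 and at least 15.3 elsewhere, while J in 092 (10.7) lies close to them.

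LUX1 and LUX2 are copies of the same clock gene, and the balance between them was compared as the LUX1 share of their summed counts. The share was 26.3%, 33.8%, 31.8%, 35.8% and 42.4% in high_force 015, 018, 044, 060 and 071. It was 39.3%, 27.3%, 0%, 52.2% and 46.0% in low_force 038, 055, 072, 092 and 109. The groups overlapped, and low_force 092 was the only library with more LUX1 than LUX2 counts. In the 7 libraries with at least 385 LUX counts the shares differed beyond counting error: the exact binomial 95% interval was 48.6% to 55.7% in low_force 092 and 29.7% to 33.8% in high_force 044. High_force 015 had 19 LUX counts, low_force 055 had 11 and low_force 072 had 6, so their intervals (9.15% to 51.2%, 6.02% to 61.0% and 0% to 45.9%) hold most of the range of the others.

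The log2 ratio of LUX1 to LUX2, with 0.5 added to each count, averaged -0.95 ± 0.35 over the 5 high_force libraries (SD) and -1.14 ± 1.52 over the 5 low_force libraries (SD). The difference of 0.19 did not pass the two-sided exact permutation test (p = 0.905, smallest possible 0.00794). It rests on low_force 072: without that library the difference turned to -0.45 (exact permutation p = 0.198). In the 7 libraries other than high_force 015 and low_force 055 and 072, the share averaged 35.9 ± 4.61% over 4 high_force libraries (SD) and 45.8 ± 6.45% over 3 low_force libraries (SD). That difference of -9.91 percentage points did not pass (exact permutation p = 0.0857, smallest possible 0.0286), and high_force 071 lay above low_force 038. How reads that match both copies were counted was not stated in the labels, so the split between LUX1 and LUX2 is uncertain.

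**Figure D3:**
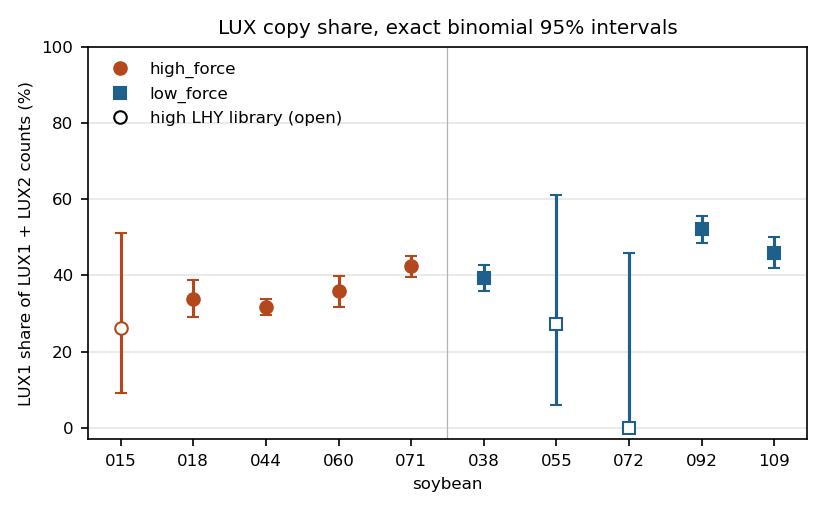
LUX1 share of LUX1 plus LUX2 counts in percent for each soybean, high_force left of low_force, with exact binomial 95% intervals; open symbols are the libraries with high LHY. Shares run between 31.8% and 52.2% in the 7 libraries with many LUX counts, and the intervals of soybeans 015, 055 and 072 are wide.

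The morning gene LHY1a (Glyma.16G017400) was high in the libraries with low LUX. It stood at 1041 CPM in high_force 015, 653.2 CPM in low_force 055 and 646.7 CPM in low_force 072, and at 11.8 to 19.3 CPM in the other 7. Low_force 092, low in J and with PRR3b level with high_force 015, had the lowest LHY1a of all libraries (11.8 CPM). Its interval (9.75 to 14.1 CPM) met that of low_force 038 (10.5 to 15.4 CPM). Its LHY2a, at 4.09 CPM, was the highest of the 7 libraries with low LHY, against 196.4 to 335.5 CPM in the other 3. That interval (2.94 to 5.55 CPM) met that of low_force 109 (2.29 to 4.67 CPM). LHY1b (Glyma.07G048500) and LHY2b (Glyma.03G261800) stood at 7.78 and 1.80 CPM in low_force 092, ranks 3 and 6 from the lowest of 10. Likeness to LUX1 was measured as Pearson's r of log2 CPM over the 10 libraries, for 30225 other genes, as a description with no test. It rests on the 3 low libraries, and all points share their library's depth. LUX2 ranked 3 from the top for likeness to LUX1 (r = 0.98), J 413 (r = 0.85), PRR3b 1289 (r = 0.75) and E2 5077 (r = 0.48). For likeness to LUX2, LUX1 ranked 6, J 151, PRR3b 1519 and E2 6942. LHY1a ranked 49 from the bottom against LUX1 (r = -0.93), and LHY2a (Glyma.19G260900) ranked 20 from the bottom against LUX2 (r = -0.95).

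The genes most like LUX1 outside the clock list were Glyma.19G102400 (r = 0.985, rho = 0.624) and Glyma.09G007000 (r = 0.983, rho = 0.527). Glyma.19G102400 had 3.47, 10.9 and 1.15 CPM in high_force 015, low_force 055 and low_force 072, and 137 to 297 CPM in the other 7. The most unlike were Glyma.02G059800 (r = -0.988, rho = -0.903) and Glyma.13G128300 (r = -0.981, rho = -0.867). Glyma.02G059800 had 58.7, 49.9 and 72.2 CPM in those 3 libraries and 35.9 to 43.3 CPM in the other 7. The files pair none of these IDs with a name.

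Because the libraries fell into 2 clusters by LUX and LHY, correlations between the 5 genes were tested only within the 7 libraries with low LHY. Of the 10 pairs, 0 passed an exact permutation test adjusted by Benjamini-Hochberg over the 10 pairs, and 1 had an unadjusted p below 0.05 by Pearson's r. That pair was LUX2 and J (r = 0.80, exact permutation p = 0.0290, adjusted 0.290; rho = 0.64, p = 0.139, adjusted 0.556; n = 7). Without both low_force 092 and 109, the libraries farthest from the median of LUX2, r was 0.43 (exact permutation p = 0.492, n = 5). With 1 library left out at a time, r stayed between 0.79 and 0.86. J and PRR3b followed (r = 0.72, exact permutation p = 0.100, adjusted 0.412; rho = 0.79, p = 0.0480, adjusted 0.480), with r = 0.68 without low_force 092 and 109. Without high_force 044, J and PRR3b passed by rho (rho = 1, exact permutation p = 0.00278, adjusted 0.0278) and not by r (adjusted 0.299). LUX1 and E2 had r = 0.64 (exact permutation p = 0.124, adjusted 0.412; rho = 0.61, p = 0.167, adjusted 0.556), and 0.89 without high_force 018 and low_force 109.

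LUX1 and LUX2, so alike over all 10 libraries, had r = 0.36 within the 7 (exact permutation p = 0.419, adjusted 0.793; rho = 0.32, p = 0.498, adjusted 0.735). The remaining 6 pairs had r between -0.21 (J and E2) and 0.40 (LUX2 and PRR3b), with adjusted exact permutation p of 0.793 to 0.944. Within the 7, LUX2 ranked 5308 from the top of 30225 genes for likeness to LUX1, and LUX1 9606 for likeness to LUX2. For LUX2 and J, J ranked 972 for likeness to LUX2, and LUX2 4529 for likeness to J. With n = 7, a p above the threshold does not show that genes vary apart.

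**Figure D4:**
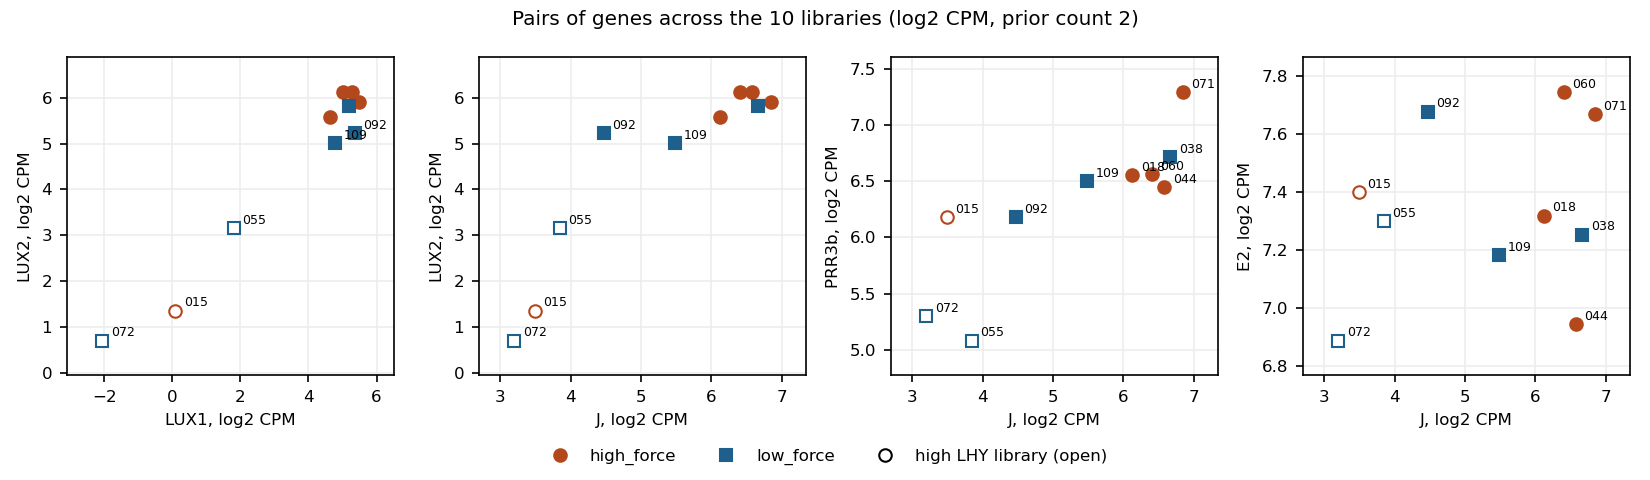
Log2 CPM of LUX2 against LUX1, and of LUX2, PRR3b and E2 against J, with 1 point per soybean; circles are high_force, squares low_force and open symbols the libraries with high LHY, and in the panels of LUX2 only soybeans 015, 055, 072, 092 and 109 are numbered. The 3 open points lie apart for LUX1 and LUX2, 092 and 109 lie between for J, and E2 lies between 6.89 and 7.75 at high and low J.

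Between pods of high and low shattering force none of the 5 genes passed the test. The question was whether evening genes differ with pod dehiscence, tested by edgeR's quasi-likelihood method over 30226 genes. Of the 5 members, 0 passed an adjusted p (Benjamini-Hochberg over all genes tested) of 0.05, where 0% of all genes were called higher and 0% lower. At an unadjusted p below 0.05 in edgeR there were 0 of the 5, against 6.26% of all genes, and DESeq2 and limma-voom also passed 0 of the 5 after adjustment. Groups that did not overlap in CPM were found for 0 of the 5, where 0.599% of all genes lay wholly higher and 0.387% wholly lower in high_force.

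All 5 log2 fold changes, high_force over low_force, were above 0, with a median of 0.56, where 48.7% of all genes were above 0 and the median was -0.014. The 5 genes were measured in the same libraries, so this count does not rest on 5 separate observations. J averaged 75.2 ± 39.4 CPM over the 5 high_force libraries (SD) and 38.3 ± 37.9 CPM over the 5 low_force libraries (SD), a log2 fold change of 0.95 (SE 0.66, edgeR adjusted p = 0.838). It was 1.73 without low_force 038 (edgeR unadjusted p = 0.0179, adjusted 0.593). Low_force 038 had the highest J of its group. LUX2 averaged, with SD over 5 libraries each here and for the other genes, 49.9 ± 28.0 CPM in high_force and 27.2 ± 22.3 CPM in low_force, a log2 fold change of 0.84 (SE 0.82, edgeR adjusted p = 0.882). It was 0.53 without low_force 072 and 1.28 without low_force 038. LUX1 averaged 28.1 ± 17.0 CPM in high_force and 21.6 ± 18.9 CPM in low_force, a log2 fold change of 0.33 (SE 0.96, edgeR adjusted p = 0.967). It was 0.011 without low_force 072, 0.65 without low_force 092 and 0.0027 in the 7 libraries with low LHY.

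PRR3b averaged 100.9 ± 32.5 CPM in high_force and 68.1 ± 31.2 CPM in low_force, a log2 fold change of 0.56 (SE 0.34, edgeR adjusted p = 0.830). It was 0.34 without high_force 071. Within the 7 libraries with low LHY it was 0.28 (edgeR adjusted p = 0.688), and J was 0.70 there (edgeR adjusted p = 0.561). LUX2 was 0.55 there (SE 0.28, edgeR unadjusted p = 0.0767, adjusted 0.484). E2 averaged 173.7 ± 36.5 CPM in high_force and 155.5 ± 31.3 CPM in low_force, a log2 fold change of 0.16 (SE 0.25, edgeR adjusted p = 0.927). It was 0.074 without high_force 060 and 0.28 without low_force 092. E2 had 0.68 by library size alone, where the median of all genes moved to 0.54.

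Of 9 other clock and photoperiod genes, 0 passed in either direction in edgeR over all genes, and 0 of the 8 tested had an unadjusted p below 0.05. Their log2 fold changes lay between -1.19 and 0.41 with a median of -0.33, 2 above and 6 below 0. E1, the flowering repressor that the evening complex holds down, had 0 counts in all 10 libraries and was not tested. The florigen gene FT5a (Glyma.16G044100) was high where J was low. FT5a had 24.9 CPM in high_force 015 and 4.33 to 10.5 CPM in the other high_force libraries. In low_force it had 22.8, 46.7 and 28.5 CPM in soybeans 055, 072 and 092 and 8.59 and 13.8 CPM in 038 and 109. Against J, FT5a had r = -0.93 over the 10 libraries, rank 145 from the bottom, and r = -0.91 over the 7 with low LHY, where it ranked 1184 from the bottom. FT5a was not opposite to J alone. Over the 10 libraries it had r = -0.82 against PRR3b, -0.81 against LUX2, -0.76 against LUX1 and -0.415 against E2. Over the 7 with low LHY it had -0.79, -0.77, -0.25 and -0.14 in the same order. There it ranked 1059 from the bottom against PRR3b and 1197 against LUX2. The florigen gene FT2a (Glyma.16G150700) was set beside it: it had 32.2 CPM in high_force 015, 8.68 CPM in low_force 055, 7.12 CPM in low_force 072 and 80.8 CPM in low_force 092, with r = -0.17 against J over the 10 libraries and -0.73 over the 7 with low LHY. Over the 7 with low LHY, E4 (Glyma.20G090000) and E3 (Glyma.19G224200) were as close to J, with r = 0.92 each. Over the 10 libraries they had r = 0.56 and 0.25. The log2 fold change of FT5a was -1.17 (SE 0.54, edgeR unadjusted p = 0.05003, just above the cut, adjusted 0.796).

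**Figure D5:**
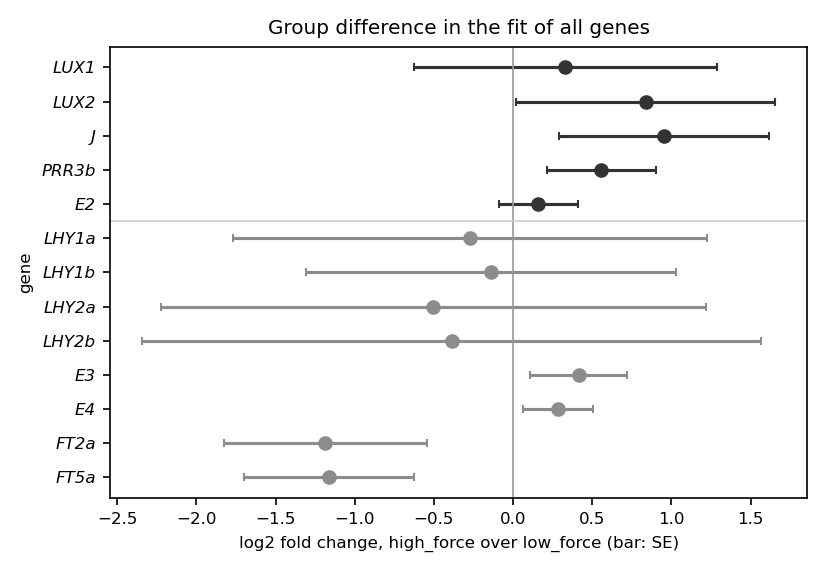
Log2 fold change, high_force over low_force, with its standard error (bars) for the 5 genes (black) and 8 other clock and photoperiod genes (grey) in the edgeR fit of all genes. No gene passed the threshold, and the 5 genes lie between 0.16 (E2) and 0.95 (J).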

How the data were processed

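The deposited table holds whole-number read counts for 56044 genes in 10 libraries, made by the authors and not normalised. Per the submitters' processing notes, edgeR, featureCounts, Subread 1.6.2, TopHat2 and Trim Galore 0.4.4 were used, in roles and with settings not stated there. Gene IDs end in Wm82.a2.v1. A genome build, strand handling and the treatment of multi-mapping reads are otherwise not given in the sources used here. The RefSeq table (Glycine_max_v4.0, 59048 genes) matched 0 of the IDs used, and no sequence was used here.

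Counts were filtered with filterByExpr (30226 genes kept), scaled by TMM and tested with the quasi-likelihood test of edgeR 4.0.16 in R 4.3.3, high_force over low_force. P-values are two-sided and were adjusted by Benjamini-Hochberg over the 30226 genes; the threshold was 0.05. Standard errors (SE) were taken as the absolute log2 fold change over the square root of the F statistic. Log2 CPM uses a prior count of 2. Exact permutation tests are two-sided. The edgeR step was tested on simulated data. Over 45 pairs of libraries the smallest chi-square per degree of freedom was 9.97, so none was counted as a repeat.

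The members, lists and the split by LHY were chosen with earlier results of these data known. The text names the 5 members, LHY genes set beside them, listed clock genes, and the 2 genes most like and the 2 most unlike LUX1. FT5a, FT2a, E3 and E4 were singled out from the list after their values were seen. Alternatives were other scalings and filters, DESeq2 1.42.0, limma-voom (limma 3.58.1), a robust fit, leaving out each library, and the 7 libraries with low LHY.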

Additional observations from a re-analysis of the deposited data

Results flagged for a closer look

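Within each group of 5, the values of the 5 genes and the log2 LUX1 to LUX2 ratio were searched for a library far from the rest, which chance gives in about 1 of 20 sets. Of 12 sets, 3 held such a library, each time high_force 015. Its log2 CPM was 0.094 for LUX1 (next lowest in high_force 4.62), 1.35 for LUX2 (next lowest 5.58) and 3.50 for J (next lowest 6.13). The 3 flags come from the same library and are not separate. In low_force, where soybeans 055 and 072 were both low, no library was found far from the rest.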

How the results depend on the processing

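The log2 fold changes of LUX1, LUX2, J, PRR3b and E2 kept their sign and stayed short of the threshold in all 20 alternatives each, within 0.0027 to 0.65, 0.53 to 1.28, 0.70 to 1.73, 0.28 to 0.92 and 0.063 to 0.68 (adjusted p of 0.484 to 0.9999). Over all genes, edgeR called 0 (1893 at an unadjusted p below 0.05), against 62 by library size only (36 higher, 26 lower), 25 by DESeq2 (6 higher, 19 lower), 2 in the 7 libraries with low LHY and 0 to 1 when a library was left out. The cause was not tested. The LUX1 to LUX2 difference of 0.19 reversed to -0.60 in the 7 libraries with low LHY (-9.91 percentage points as a share, an alternative chosen after seeing the data) and ranged from -0.45 (without low_force 072) to 0.51 when a library was left out. It was 0.0065 with 1 added to each count.

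Of the 10 pairs, 0 passed by Pearson's r under each of 12 alternatives. The alternative without the 2 libraries farthest from the median had n = 5 and 120 pairings. A single pair could not pass there after adjustment, whatever its r. By Spearman's rho, J and PRR3b passed without high_force 044 (rho = 1, exact permutation p = 0.00278, adjusted 0.0278). J and E2 turned to 0.0088 by library size only, 0.042 by library size outside chromosome 13 and 0.087 without the 2 libraries farthest from the median. There LUX1 and LUX2 turned to -0.39, LUX1 and J to -0.205, and LUX2 and PRR3b to -0.11. When each library was left out, r ranged from 0.078 (without low_force 109) to 0.63 (without low_force 092) for LUX1 and LUX2, 0.19 to 0.55 for LUX2 and PRR3b, -0.16 to 0.75 for LUX1 and J, -0.28 to 0.69 for LUX1 and PRR3b, -0.27 to 0.47 for LUX2 and E2, -0.43 to 0.28 for J and E2, and -0.30 to 0.58 for PRR3b and E2. The same range was 0.79 to 0.86 for LUX2 and J, 0.56 to 0.84 for J and PRR3b, and 0.56 to 0.78 for LUX1 and E2. LUX levels in low_force 055 rest on 3 and 8 counts. No paired analysis was possible because the groups share no soybean number.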
